A study of Mus musculus with 27 samples.

Results

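Gene expression was compared between hearts of vehicle-treated mice 28 days and 11 days after transverse aortic constriction (TAC), over all genes of a microarray series. TAC narrows the aortic arch, so that the left ventricle pumps against a raised pressure. The comparison rests on 6 of the 27 arrays of the series, 3 for each day, and covers 19937 genes, each represented by 1 probe set. The members were taken from the sample titles, which give the operation, the injection, the day and the replicate. The animals were male littermates of the C57Bl/6J strain, 10 to 12 weeks old, and the labels name no engineered allele. The 3 TAC day 28 and 3 TAC day 11 hearts had a constriction between the carotid arteries, which produced a peak gradient of about 50 mmHg. The 3 sham day 28 and 3 sham day 11 hearts came from mice after the sham operation, and their change over the same days is given beside each TAC change. All 12 hearts had received injections of vehicle, named as DMSO in the descriptions, from 1.5 days after the operation. The other 15 arrays of the series, hearts at day 3 and hearts given the bromodomain inhibitor JQ1, entered only through the estimate of each gene's spread and the choice of its probe set.

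Under pressure overload the mouse heart first thickens and then dilates and weakens. In the early phase cardiomyocytes switch on natriuretic peptides, fetal sarcomere isoforms and proteins of the Z-disc, the structure that anchors thin filaments, while stromal cells divide and lay down matrix. Later stages are known for fibrosis, altered fuel use and loss of contractile function. The comparison of day 28 with day 11 asks which transcripts still moved between the hypertrophic and the late stage in hearts that received no active compound.

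RNA had been made from a piece of 10 to 20 mg of heart, so each value is an average over all cell types, and fewer cells of a type cannot be told apart from less RNA per cell. The labels name littermates but do not say that each array stands for a separate animal. The p-values are thus relative to the spread between arrays of a group, estimated over all 27 arrays, and not to a known spread between animals. Values are log2 array signals, and a difference of 1 means a doubling of signal. The labelled tissue was checked against its defining transcripts. Cardiac troponin T, Tnnt2, was at 13.69, 13.70 and 13.70 in the TAC day 28 arrays and 13.65, 13.69 and 13.67 in the TAC day 11 arrays. The alpha myosin heavy chain Myh6 was at 13.31, 13.34 and 13.27 in the TAC day 28 arrays and 13.35, 13.39 and 13.35 in the TAC day 11 arrays. Arrays of 1 group correlated at 0.9943 to 0.9956 within TAC day 28 and at 0.9941 to 0.9964 within TAC day 11, and no array pair was identical. Replicate 2 of TAC day 28 stood apart in its matrix genes. Its mean level over 37 matricellular and other matrix genes, relative to the mean of the 27 arrays, was 0.252, against 0.894 and 1.031 in the other TAC day 28 arrays, 0.436 to 0.67 in the TAC day 11 arrays and -0.48 to -0.35 in the sham arrays. The matrix, fibroblast and TGF-beta lists are given with and without it. It was singled out by its matrix genes, so values without it are a description and no test.

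In TAC hearts, 416 genes (2.09%) differed between day 28 and day 11 at a Benjamini-Hochberg adjusted p under 0.05 in limma, which is the threshold for a called gene throughout. Of these, 246 (1.23%) rose and 170 (0.853%) fell, with median log2 changes of 0.435 and -0.384. These 2 shares of all genes are the background for each count of list members that rose or fell below. Changes of at least 1.5-fold were found for 56 of the genes that rose and 32 of those that fell. At an unadjusted p under 0.05 there were 3305 of the 19937 genes, and the median change of all genes was -0.044. A positive change was seen in 7700 genes (38.6%). This share depended on level. The median change was -0.096 in the 8606 genes with a mean level under 7. It was 0.01 in the 3949 genes of 9 or more. Signs of list members are set below against the share over all levels, and shares among genes of like level were not computed. The TAC day 28 and TAC day 11 arrays did not overlap for 242 of the 246 and 170 of the 170, where 10.3% and 13.5% of all genes were separated upward and downward. In sham hearts, 2 genes (0.01%) changed between the same days, both downward, and 794 reached an unadjusted p under 0.05. The number of genes called in sham was 0 in each fit without 1 array. The sham changes of the TAC-called genes had medians of 0.008 for the 246 that rose and 0.027 for the 170 that fell, and 129 of the 246 and 67 of the 170 had a sham change of the same sign. A direct test of the TAC change against the sham change called 29 genes (0.145%), 13 (0.0652%) with the higher and 16 (0.0803%) with the lower change in TAC, of which 12 and 14 were among the 246 and 170. The number of called genes in TAC depended on single arrays. It was 101 without TAC day 11 replicate 2, 118 without TAC day 11 replicate 3, 124 without TAC day 28 replicate 3, 174 without TAC day 28 replicate 1 and 235 without TAC day 11 replicate 1. Of the 91 called genes that the naming rule selected, 30 kept their call in each of the 12 fits that left out 1 array. The other 61 lost it in at least 1 and 53 of them in more than 1, so the array named below beside an ended call is the one that gave the highest adjusted p and seldom the only one. Calls that ended also without a sham array were those of Arntl (12 of 12 fits), C4b and Cox6a2 (11 each), Prc1 (10), Col18a1 (9), Msln and Samt2b (8 each), and Hcn4 and Myocd (7 each). After a further quantile normalization the split was 312 higher and 322 lower. With the TAC day 28 and TAC day 11 arrays fitted alone, 141 genes were called, and 45 of the 91 lost their call.

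**Figure D1:**
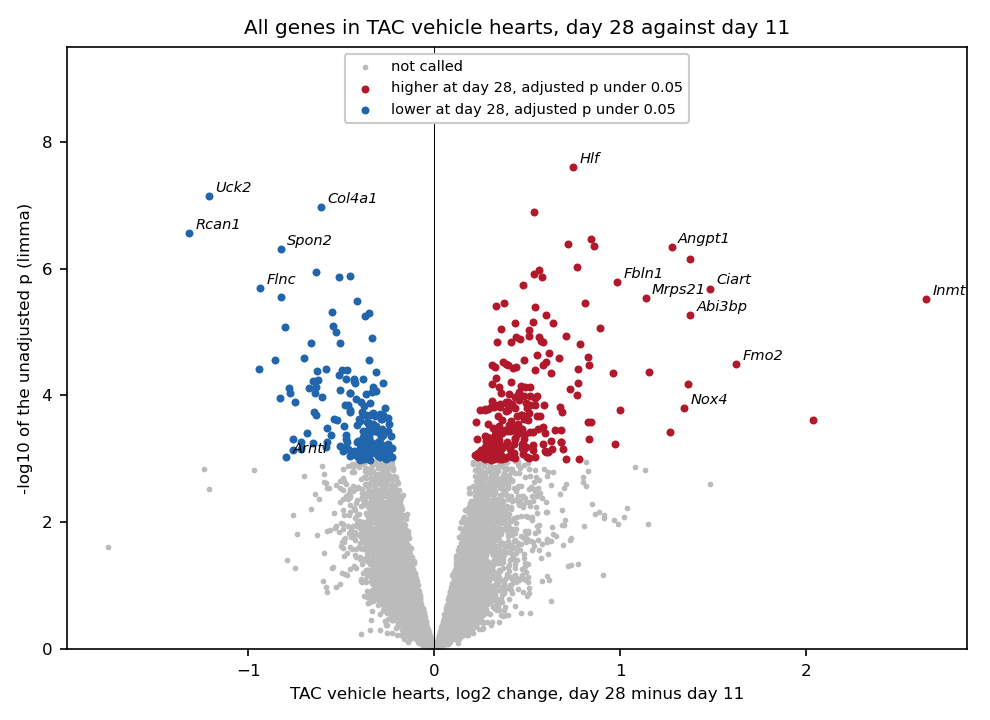
Each point is 1 of 19937 genes, placed by its log2 change in TAC hearts, day 28 minus day 11 (horizontal axis), and by -log10 of its unadjusted limma p (vertical axis). The 246 called genes that were higher at day 28 reach 2.64 for Inmt, and the 170 that were lower reach -1.32 for Rcan1.

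Part of the heart stress program fell. Of 25 cardiomyocyte stress and fetal genes, 8 fell, against 0.853% of all genes, and none rose. The list median was -0.208, against -0.044 for all genes and 0.06 for the same list in sham hearts. The 8 were Rcan1, Uck2, Fhl1, Flnc, Mybpc2, Enah, Xirp1 and Xirp2. Rcan1, a feedback inhibitor of the phosphatase calcineurin and one of its transcriptional targets, had levels of 10.10, 9.98 and 10.03 in TAC day 28 hearts, against 11.26, 11.12 and 11.69 in TAC day 11 hearts. All TAC day 28 arrays lay below all TAC day 11 arrays, and the log2 change was -1.32 ± 0.18 (SE of the fit, n = 3 arrays each, limma adjusted p = 0.000989), a 2.49-fold lower signal. Rcan1 stood at 9.28, 9.45 and 9.28 in sham day 28 hearts and 9.50, 9.90 and 9.69 in sham day 11 hearts, so TAC exceeded sham by 0.70 at day 28 and by 1.66 at day 11. The TAC change of Rcan1 was not called as different from its sham change. Uck2, a kinase of the pyrimidine salvage pathway, stood at 10.95, 11.08 and 10.82 in TAC day 28 arrays, against 12.04, 12.05 and 12.40 in TAC day 11 arrays. Its change was -1.21 ± 0.16 (adjusted p = 0.000648), and the change differed from the sham change of -0.07 (difference -1.14 ± 0.22, adjusted p = 0.0349).

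Further falls were of proteins of the Z-disc and of the actin cytoskeleton. Flnc, filamin C, which crosslinks actin at the Z-disc, had 10.82, 11.02 and 10.62 in TAC day 28 hearts, against 11.58, 11.66 and 12.03 in TAC day 11 hearts. Sham hearts had 10.79, 10.97 and 10.92 at day 28 and 10.62, 10.72 and 10.73 at day 11. The TAC day 28 arrays overlapped the sham arrays, while every TAC day 11 array was above them: TAC minus sham was -0.07 at day 28 (adjusted p = 0.79) and 1.06 at day 11 (adjusted p = 2.4e-05). The change of Flnc was -0.94 ± 0.15 (adjusted p = 0.00187), and its difference from the sham change was -1.13 ± 0.21 (adjusted p = 0.0261). Enah, an actin-elongation factor, fell by 0.83 ± 0.13 (adjusted p = 0.00238) and was 0.10 above sham at day 28 and 1.05 above sham at day 11. Fhl1, a LIM-domain protein that binds titin, fell by 0.94 ± 0.19, and Mybpc2, the fast skeletal myosin-binding protein C, fell by 0.83 ± 0.18. The Xin-repeat actin-binding proteins Xirp1 and Xirp2 fell by 0.75 ± 0.16 and 0.58 ± 0.11. Outside the list, myotilin (Myot), which links filamin to alpha-actinin, fell by 0.76 ± 0.19, the actin bundler Fscn1 fell by 0.78 ± 0.16 and the growth factor Hbegf fell by 0.86 ± 0.16. Single arrays ended some of these calls. Without TAC day 11 replicate 3 the adjusted p was 0.0646 for Fhl1, 0.0593 for Hbegf and 0.0979 for Xirp1, and without TAC day 28 replicate 3 it was 0.111 for Mybpc2, 0.213 for Myot, 0.0956 for Fscn1 and 0.0564 for Xirp2. The number of members of the list called lower was 4 to 9 when 1 of the 12 arrays was left out, with the fewest without TAC day 11 replicate 3. The calls of Rcan1, Uck2, Flnc and Enah held in all 12 of these fits.

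The classical hypertrophy markers were not called. Nppa, which encodes atrial natriuretic peptide, was at 13.55, 13.31 and 13.57 in TAC day 28 hearts and 13.51, 13.44 and 13.56 in TAC day 11 hearts. Its change was -0.03 ± 0.18 (adjusted p = 0.951), and TAC exceeded sham by 1.69 at day 28 and 1.82 at day 11. Myh7, the slow fetal myosin heavy chain, changed by 0.00 ± 0.22 and exceeded sham by 1.87 at day 28 and 1.81 at day 11. The B-type peptide gene Nppb changed by -0.26 ± 0.32, the stretch-responsive repressor Ankrd1 by -0.11 ± 0.07 and skeletal actin Acta1 by -0.51 ± 0.29 (adjusted p = 0.687, 0.455 and 0.389). Each of these 5 markers was above sham at both days at an adjusted p under 0.05. Adult sarcomere genes moved little: Tcap, the telethonin cap of titin, rose by 0.60 ± 0.10 and the cardiac myosin light chain kinase Mylk3 by 0.35 ± 0.09, and the other 17 of 19 were not called, Myh6 among them at -0.06 ± 0.05. The Mylk3 call ended without TAC day 28 replicate 3 (adjusted p = 0.143).

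**Figure D2:**
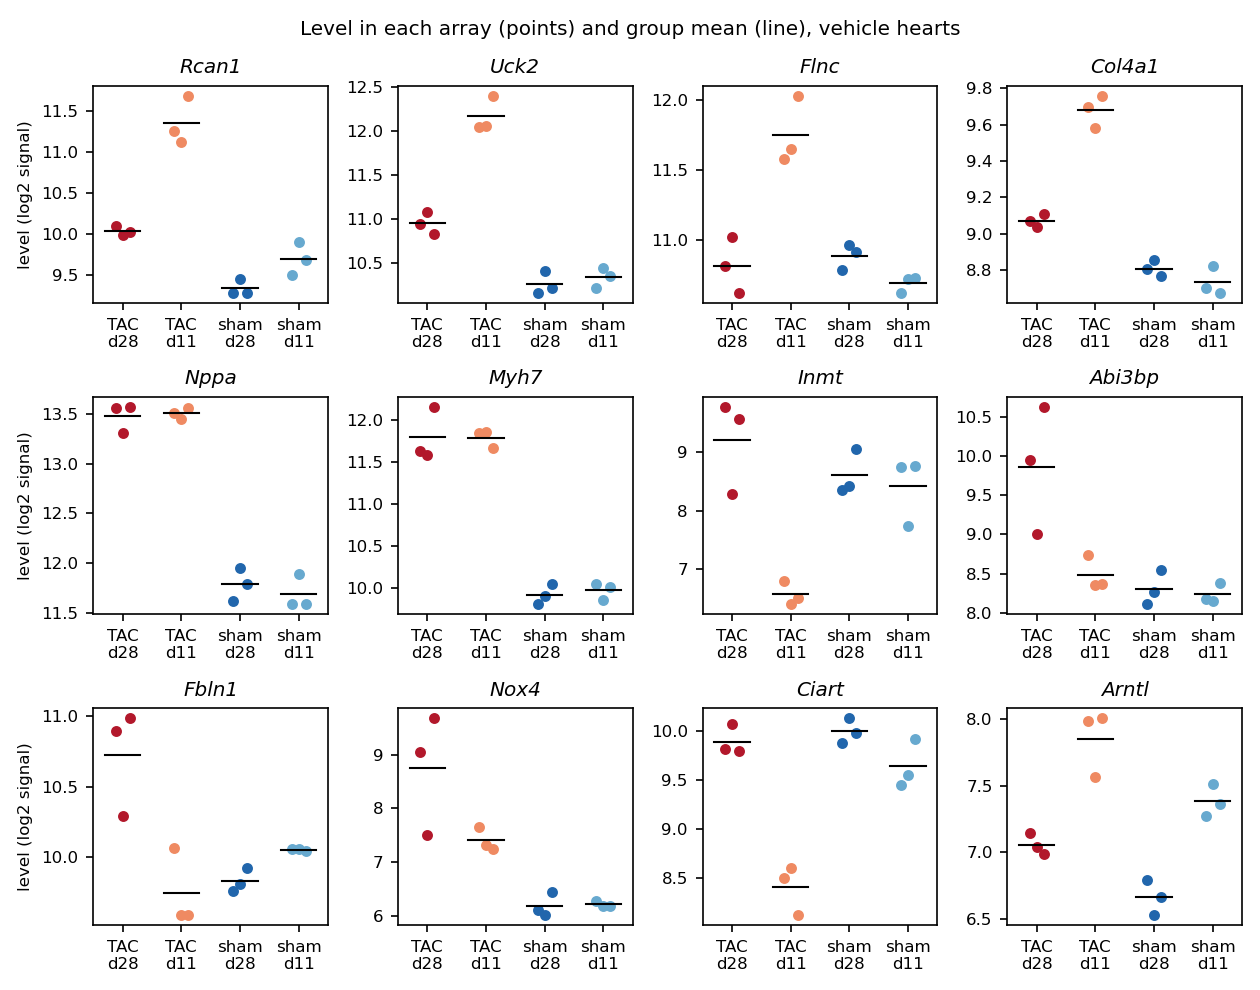
Log2 signal (vertical axis of each panel, scales differ) of 12 genes in each array (points) with the group mean (line), for TAC day 28, TAC day 11, sham day 28 and sham day 11. Rcan1, Uck2, Flnc and Col4a1 were lower at TAC day 28 than at TAC day 11, Nppa and Myh7 remained above sham at both days, and Inmt and Ciart were lowest in the TAC day 11 arrays.

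The largest rises were of 2 kinds when set beside sham. Genes of the first kind had means below sham at day 11. Inmt, a methyltransferase of small amines, was at 9.78, 8.28 and 9.57 in TAC day 28 hearts, against 6.80, 6.39 and 6.50 in TAC day 11 hearts, and at 8.35, 8.42 and 9.05 in sham day 28 hearts, against 8.74, 7.74 and 8.76 in sham day 11 hearts. Every TAC day 11 array lay below every other array shown, and the change of 2.64 ± 0.43 (6.25-fold, adjusted p = 0.00238) was the largest among called genes. TAC minus sham was 0.60 at day 28 (adjusted p = 0.388) and -1.85 at day 11 (adjusted p = 0.00393). The difference from the sham change, 2.45 ± 0.61, was not called (adjusted p = 0.095). Fmo2, a flavin monooxygenase, rose by 1.62 ± 0.31 (adjusted p = 0.00918) and stood at 0.20 relative to sham at day 28 and -0.84 at day 11, neither of them called. Angpt1, the angiopoietin that activates the endothelial receptor Tie2, rose by 1.28 ± 0.18 (adjusted p = 0.000989) and still stood at -0.79 relative to sham at day 28, against -1.58 at day 11. The opioid precursor Penk rose by 1.0 ± 0.22 and stood at -0.71 relative to sham at day 28 and -1.89 at day 11. The desaturase Scd4 rose by 1.37 ± 0.20 in TAC hearts and changed by 0.54 ± 0.20 in sham hearts (unadjusted p = 0.013). Without TAC day 28 replicate 2 the call of Penk ended (adjusted p = 0.0918).

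Genes of the second kind stood further above sham at day 28 than at day 11, and several are secreted into the matrix. Abi3bp, a secreted matrix protein, was at 9.95, 9.0 and 10.62 in TAC day 28 hearts, against 8.74, 8.35 and 8.36 in TAC day 11 hearts. The TAC day 28 arrays all lay above the TAC day 11 and sham arrays, with replicate 2 the lowest, and the change was 1.37 ± 0.23 (adjusted p = 0.00315), with 1.55 above sham at day 28 and 0.25 at day 11. Fbln1, the matrix glycoprotein fibulin-1, was at 10.90, 10.29 and 10.99 in TAC day 28 hearts, against 10.06, 9.58 and 9.58 in TAC day 11 hearts. Its change of 0.98 ± 0.15 (adjusted p = 0.0017) differed from the sham change of -0.22 (difference 1.20 ± 0.22, adjusted p = 0.023). The matrix protein gene Ecm2 rose by 0.97 ± 0.24, the multimerin Mmrn1 by 1.15 ± 0.23 and Ccn5, a CCN-family matricellular protein, by 0.86 ± 0.12. Ccn5 was already above sham at day 11 (0.80) and stood at 1.39 above sham at day 28. Nox4, an oxidase that makes hydrogen peroxide, was at 9.05, 7.50 and 9.69 in TAC day 28 hearts, against 7.66, 7.31 and 7.24 in TAC day 11 hearts. The days overlapped, because the low TAC day 28 array, replicate 2, fell within the TAC day 11 range. The change of Nox4 was 1.34 ± 0.30 (adjusted p = 0.0204), with 2.56 above sham at day 28 and 1.19 at day 11, and its call ended without TAC day 28 replicate 3 (adjusted p = 0.124). The same array ended the calls of Ecm2 (adjusted p = 0.209) and Mmrn1 (adjusted p = 0.0768). The TAC calls of Abi3bp and Fbln1 held in all 12 fits without 1 array. Both ended when the TAC day 28 and TAC day 11 arrays were fitted alone.

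Few matrix genes were called, and their classes are given in turn. Of 22 collagen genes, 3 fell, against 0.853% of all genes, and none rose. Negative changes were seen in 20 of the 22, where 38.6% of all genes had a positive change. The list median was -0.242, against 0.065 in sham hearts and -0.044 for all genes in TAC hearts. The 3 were Col4a1 and Col4a2, whose chains form the type IV collagen of basement membranes, and Col18a1, another basement membrane collagen. Col4a1 was at 9.07, 9.04 and 9.11 in TAC day 28 hearts, against 9.70, 9.58 and 9.76 in TAC day 11 hearts, and at 8.80, 8.85 and 8.76 in sham day 28 hearts, against 8.70, 8.82 and 8.67 in sham day 11 hearts. The TAC days did not overlap, and the change was -0.61 ± 0.08 (adjusted p = 0.000648) with a difference from the sham change of -0.68 ± 0.11 (adjusted p = 0.0147). Col4a2 was at 9.12, 9.10 and 9.05 in TAC day 28 hearts, against 9.68, 9.56 and 9.70 in TAC day 11 hearts, and changed by -0.55 ± 0.09 (adjusted p = 0.00307), with a difference from the sham change of -0.72 ± 0.13 (adjusted p = 0.0253). TAC exceeded sham by 0.26 and 0.18 at day 28 and by 0.95 and 0.90 at day 11 for Col4a1 and Col4a2. The laminin gamma chain gene Lamc1, of the same basement membranes, fell by 0.23 ± 0.06 (adjusted p = 0.0336). The fibrillar collagens Col1a1 and Col3a1 changed by -0.42 ± 0.15 and -0.34 ± 0.18 and were not called (adjusted p = 0.159 and 0.363). They stood 0.79 and 1.18 above sham at day 28 and 1.27 and 1.55 above sham at day 11. Without TAC day 11 replicate 2 the calls of Col18a1 and Lamc1 ended (adjusted p = 0.195 and 0.121). Without TAC day 28 replicate 2 the list median was -0.13, 2 collagens fell (Col4a1 and Col4a2) and 1 rose, Col12a1, which associates with collagen fibrils (0.84 ± 0.17, adjusted p = 0.01).

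Col4a1 and Col4a2 lie head to head on mouse chromosome 8, and their promoters are shown because both genes fell together. Whether this arrangement had a part in the fall was not tested. Each sequence is a RefSeq window of 300 bases that reaches from upstream of the annotated start to shortly after it, on the strand of the gene, in build GRCm38.p6. The windows are chr8:11312777-11313076 on the minus strand for Col4a1 and chr8:11312555-11312854 on the plus strand for Col4a2, and capitals mark the 78 bases that both share, 11312777 to 11312854. The annotated starts are 21 bases apart.
Col4a1: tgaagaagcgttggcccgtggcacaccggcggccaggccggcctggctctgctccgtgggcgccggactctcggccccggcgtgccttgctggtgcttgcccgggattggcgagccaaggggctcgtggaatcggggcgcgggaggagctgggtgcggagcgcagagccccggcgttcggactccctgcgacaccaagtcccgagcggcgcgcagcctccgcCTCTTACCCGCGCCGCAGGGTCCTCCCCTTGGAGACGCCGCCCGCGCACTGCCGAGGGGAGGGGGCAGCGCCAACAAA
Col4a2: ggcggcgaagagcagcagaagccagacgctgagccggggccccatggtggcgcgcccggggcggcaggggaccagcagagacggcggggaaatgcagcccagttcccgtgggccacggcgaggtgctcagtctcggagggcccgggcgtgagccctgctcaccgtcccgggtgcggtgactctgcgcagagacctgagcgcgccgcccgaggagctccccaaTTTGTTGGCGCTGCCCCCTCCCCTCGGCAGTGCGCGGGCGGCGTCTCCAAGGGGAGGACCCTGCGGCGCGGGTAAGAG

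Among 37 matricellular and other matrix genes, 2 rose, Fbln1 and Prelp (0.56 ± 0.13, adjusted p = 0.0305), against 1.23% of all genes. None fell, and the median was 0.219, against 0.092 in sham hearts. Prelp, a leucine-rich proteoglycan, was 1.10 above sham at day 28 and 0.51 at day 11, and its call ended without TAC day 28 replicate 1 (adjusted p = 0.138). The count of this list depended on TAC day 28 replicate 2, which was singled out by its low level over these same genes. The values without it, p-values included, rest on the other TAC day 28 arrays and describe a rise without testing it. Without that array the median was 0.309 and 11 of the 37 rose, among them the collagen-binding proteoglycan Fmod (2.45 ± 0.19, adjusted p = 9.92e-08), the cartilage matrix protein Comp (1.72 ± 0.13), the Wnt-binding protein Sfrp2 (1.73 ± 0.21) and Cilp (1.05 ± 0.19). Leaving out the other TAC day 28 arrays lowered the median, to 0.072 without replicate 1 and -0.002 without replicate 3, with 1 gene called in each of those fits. With all arrays Fmod was at 9.32, 6.54 and 9.59 in TAC day 28 hearts, against 7.56, 6.67 and 6.78 in TAC day 11 hearts, and was not called (1.48 ± 0.44, adjusted p = 0.078). Periostin, Postn, was at 12.50, 11.71 and 12.77 in TAC day 28 hearts and 12.52, 12.33 and 12.52 in TAC day 11 hearts and was not called (-0.13 ± 0.24). Tenascin C, Tnc, a matricellular protein of early injury, was at 6.89, 6.72 and 6.90 in TAC day 28 hearts, against 8.27, 7.38 and 8.50 in TAC day 11 hearts, and missed the threshold at -1.21 ± 0.37 (adjusted p = 0.0836). Thus replicate 2 of TAC day 28 was low in Fmod and Postn but not apart in Tnc. Mean scores of the fibroblast markers were 0.464, 0.246 and 0.547 in the TAC day 28 arrays and 0.384, 0.286 and 0.364 in the TAC day 11 arrays, so this array was low in fibroblast transcripts too, and the part of that in the matrix results was not tested. Of 20 fibroblast markers, 1 rose, the peptidase inhibitor gene Pi16 (0.55 ± 0.12, adjusted p = 0.0163), and its call ended without TAC day 28 replicate 3 (adjusted p = 0.111). Without TAC day 28 replicate 2 Pi16 rose and Cd248, a surface glycoprotein of fibroblasts and pericytes, fell (-0.35 ± 0.08, adjusted p = 0.0242), and the median of the list was 0.193, against 0.108 with all arrays.

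Among 23 metalloproteinases and their inhibitors, 3 inhibitors rose, against 1.23% of all genes, and none fell. Timp3, which binds to the matrix, rose by 0.64 ± 0.11 (adjusted p = 0.00381), the membrane-anchored inhibitor Reck by 0.41 ± 0.10 and Timp2 by 0.28 ± 0.07. Timp3 was at 11.79, 11.67 and 11.71 in TAC day 28 hearts, against 11.18, 11.02 and 11.06 in TAC day 11 hearts, and changed in sham hearts by 0.34 ± 0.11 (unadjusted p = 0.0056). Timp1 changed by -0.58 ± 0.36 (adjusted p = 0.433) and was 2.72 above sham at day 28 and 3.30 at day 11. None of 18 collagen crosslinking and processing enzymes was called, although 7 reached an unadjusted p under 0.05, against 3305 of all 19937 genes. The lowest adjusted p were those of the prolyl hydroxylase P4ha2 (-0.29 ± 0.08, 0.0695) and the collagen chaperone Serpinh1 (-0.44 ± 0.13, 0.0793). Without TAC day 28 replicate 2, P4ha2 fell (-0.35 ± 0.09, adjusted p = 0.042), the lysyl oxidase family member Loxl3 rose (0.48 ± 0.12, adjusted p = 0.0485) and the median was 0.007, against -0.103 with all arrays. The calls of Reck and Timp2 ended without TAC day 28 replicate 3 (adjusted p = 0.136 and 0.145).

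A single proliferation gene fell, and most of the others had negative changes. Of 36 cell cycle genes, 35 had negative changes, where 38.6% of all genes had a positive change. The median was -0.257, against 0.081 in sham hearts, and Prc1, which bundles microtubules of the dividing cell, fell (-0.72 ± 0.18, adjusted p = 0.0416). Mki67, the Ki-67 antigen of cycling cells, was at 7.79, 7.58 and 7.81 in TAC day 28 hearts, against 8.34, 8.21 and 8.36 in TAC day 11 hearts. The days did not overlap, and the change of -0.57 ± 0.22 was not called (adjusted p = 0.179). At day 28, 7 of the 36 genes were called above sham, against 8.13% of all genes called higher and 15.1% called in either direction. At day 11, 24 of the 36 were called above sham, against 7.8% of all genes called higher and 15.5% in either direction. The Prc1 call ended in 10 of the 12 fits without 1 array, 4 of them without a sham array (highest adjusted p = 0.16, without TAC day 28 replicate 2).

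Immune transcripts rose in part. Of 27 macrophage markers, 2 rose, against 1.23% of all genes, and 23 had positive changes, against 38.6% of all genes. The median was 0.27, against -0.07 in sham hearts. Fcer1g, the signalling chain of activating Fc receptors, was at 9.93, 10.02 and 10.42 in TAC day 28 hearts, against 9.55, 9.22 and 9.31 in TAC day 11 hearts, and at 8.44, 8.52 and 8.70 in sham day 28 hearts, against 8.72, 8.79 and 9.04 in sham day 11 hearts. Its change was 0.77 ± 0.16 (adjusted p = 0.0158), and TAC exceeded sham by 1.57 at day 28 and 0.51 at day 11. At day 28, 20 of the 27 markers were called above sham, against 8.13% of all genes, and 17 at day 11, against 7.8% of all genes. C1qc, a chain of the complement starter C1q, rose by 0.55 ± 0.13 (adjusted p = 0.0229), and the general macrophage gene Lyz2 changed by 0.20 ± 0.11 without a call. Mean scores of the macrophage list were 0.377, 0.529 and 0.653 in TAC day 28 arrays, against 0.375, 0.195 and 0.258 in TAC day 11 arrays, with the lowest TAC day 28 array just above the highest TAC day 11 array. The calls of Fcer1g and C1qc ended without TAC day 28 replicate 3 (adjusted p = 0.106) and TAC day 11 replicate 2 (adjusted p = 0.13). No neutrophil, lymphocyte, MHC class II or interferon-stimulated gene was called, among 14, 18, 14 and 22 measured. Of these, 1, 3, 3 and 1 reached an unadjusted p under 0.05, against 3305 of all 19937 genes.

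Of 18 complement and acute phase genes, 4 rose, against 1.23% of all genes, and none fell. C7, a component of the membrane attack complex, was at 9.56, 9.51 and 9.62 in TAC day 28 hearts, against 8.63, 8.56 and 8.62 in TAC day 11 hearts, a change of 0.96 ± 0.19 (adjusted p = 0.01). The C1 inhibitor Serping1 rose by 0.62 ± 0.12, complement C4b by 0.61 ± 0.16 and ceruloplasmin, Cp, by 0.39 ± 0.08. Of 32 chemokines and cytokines, 3 rose: the stromal chemokine Cxcl12 (0.51 ± 0.09, adjusted p = 0.00424), the alarmin Il33 (0.68 ± 0.17) and Il15 (0.54 ± 0.11), which supports lymphocytes and is also made by muscle. Cxcl12 stood at -0.01 relative to sham at day 28 and -0.27 at day 11, and Il15 stood at -0.70 and -1.17 on those days. The number of complement genes called higher was 1 without TAC day 11 replicate 2, which also ended the calls of C7 (adjusted p = 0.0522), Serping1 (0.0597) and Il15 (0.0705). The C4b call ended in 11 of the 12 fits without 1 array, every fit without a sham array among them (highest adjusted p = 0.212, without TAC day 28 replicate 2). Leaving out TAC day 28 replicate 3 ended the calls of Il33 (0.229) and Cp (0.0576).

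**Figure D3:**
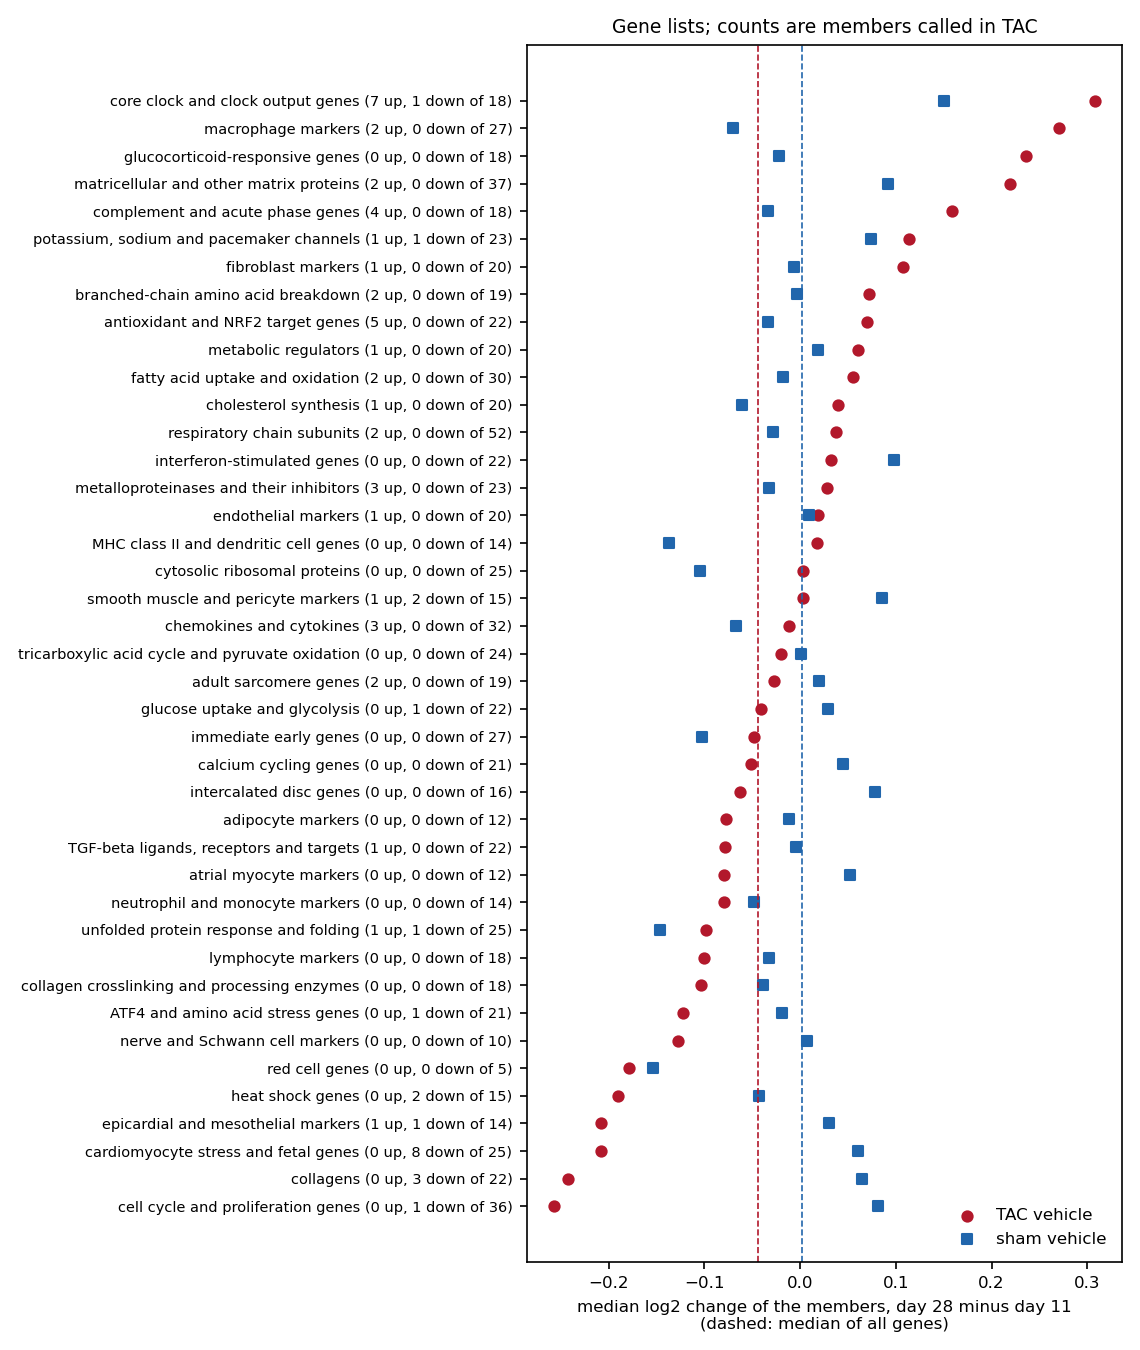
Median log2 change, day 28 minus day 11 (horizontal axis), of the members of each of 41 gene lists in TAC hearts (circles) and sham hearts (squares), with the medians of all genes dashed. Labels give how many members rose and fell in TAC hearts of how many measured. In TAC hearts the clock list is at 0.308 and the cell cycle list at -0.257.

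Most called genes of the molecular clock rose. The clock is a loop in which Arntl and Clock activate the Per, Cry and Nr1d genes through E-box sequences and are in turn repressed by their products, and the output factors Dbp, Tef and Hlf bind D-boxes. Of 18 clock genes, 7 rose, against 1.23% of all genes, and 1 fell, against 0.853% of all genes. The median was 0.308, against 0.15 in sham hearts. Ciart, a repressor of the Arntl and Clock pair, was at 9.81, 10.07 and 9.79 in TAC day 28 hearts, against 8.51, 8.60 and 8.13 in TAC day 11 hearts, and at 9.88, 10.14 and 9.98 in sham day 28 hearts, against 9.45, 9.56 and 9.92 in sham day 11 hearts. The TAC day 11 arrays lay below all others, and the change was 1.48 ± 0.24 (adjusted p = 0.00187). Per2 rose by 0.84 ± 0.12, Per3 by 0.72 ± 0.10 and Hlf by 0.75 ± 0.09 (adjusted p = 0.000989, 0.000989 and 0.000505). Dbp, Tef and Nr1d2 rose by 0.78 ± 0.21, 0.36 ± 0.09 and 0.33 ± 0.09 (adjusted p = 0.049, 0.041 and 0.0433). Arntl, the activator, was at 7.15, 7.04 and 6.99 in TAC day 28 hearts, against 7.98, 7.57 and 8.01 in TAC day 11 hearts, and at 6.79, 6.53 and 6.66 in sham day 28 hearts, against 7.27, 7.51 and 7.36 in sham day 11 hearts.

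The day 28 arrays of Arntl lay below its day 11 arrays in both operations. Its change was -0.80 ± 0.21 in TAC hearts (adjusted p = 0.0476) and -0.72 ± 0.21 in sham hearts (unadjusted p = 0.0022), and the TAC call ended in each of the 12 fits that left out 1 array (highest adjusted p = 0.16, without TAC day 28 replicate 3). In sham hearts 8 of the 18 clock genes reached an unadjusted p under 0.05, against 794 of all 19937 genes, and none was called. Per2 changed in sham hearts by 0.49 ± 0.12, Tef by 0.32 ± 0.09 and Hlf by 0.30 ± 0.09. No clock gene differed between the TAC and the sham change at an adjusted p under 0.05. At an unadjusted p under 0.05 there were 6, against 2304 of all 19937 genes. The labels used here do not give the time of day of tissue collection, and its part in these changes was not tested. The number of clock genes called higher was 4 or 5 when 1 array was left out, and Ciart, Per2, Per3 and Hlf were called in all 12 of those fits. The Tef call ended without TAC day 11 replicate 1 (adjusted p = 0.175), and those of Dbp and Nr1d2 ended in each of the 12 fits (highest adjusted p = 0.137 and 0.139).

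**Figure D4:**
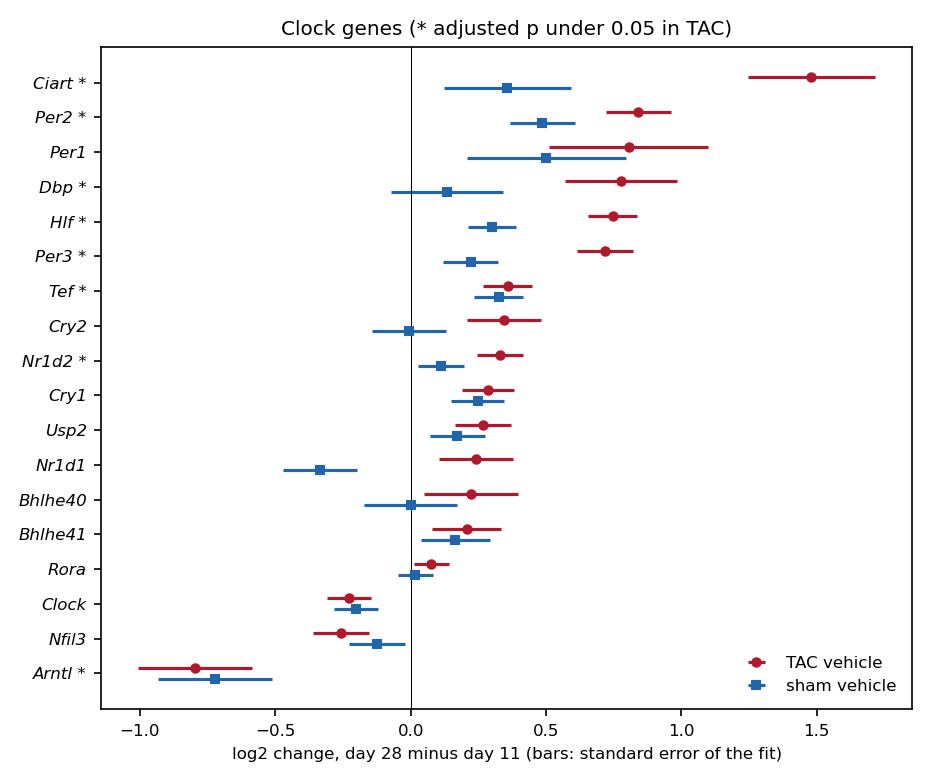
Log2 change, day 28 minus day 11 (horizontal axis), of each of 18 clock genes in TAC hearts (circles) and sham hearts (squares), with bars for the standard error of the fit and stars for genes called in TAC hearts. Changes run from -0.80 for Arntl to 1.48 for Ciart in TAC hearts, and Arntl stands at -0.72 in sham hearts.

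The promoters of 3 clock genes are shown because all 3 were called, Ciart and Per3 higher and Arntl lower, and the 3 kinds of clock element each appear in 1 of them. The windows are RefSeq sequence of build GRCm38.p6, 300 bases around the start as above, on the strand of the gene: chr3:95882179-95882478 on the minus strand for Ciart, chr4:151044616-151044915 on the minus strand for Per3 and chr7:113207261-113207560 on the plus strand for Arntl. Where a gene has several windows, the 1 shown is the first by position among those that hold the motif. Capitals mark the E-box CACGTG in Ciart, the D-box TTANGTAA in Per3 and the ROR element in Arntl.
Ciart: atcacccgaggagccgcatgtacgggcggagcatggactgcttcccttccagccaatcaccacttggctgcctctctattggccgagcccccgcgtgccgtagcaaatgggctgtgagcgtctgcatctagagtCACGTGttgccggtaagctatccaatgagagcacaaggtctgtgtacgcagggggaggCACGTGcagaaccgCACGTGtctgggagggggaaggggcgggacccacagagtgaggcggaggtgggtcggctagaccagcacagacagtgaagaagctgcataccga
Per3: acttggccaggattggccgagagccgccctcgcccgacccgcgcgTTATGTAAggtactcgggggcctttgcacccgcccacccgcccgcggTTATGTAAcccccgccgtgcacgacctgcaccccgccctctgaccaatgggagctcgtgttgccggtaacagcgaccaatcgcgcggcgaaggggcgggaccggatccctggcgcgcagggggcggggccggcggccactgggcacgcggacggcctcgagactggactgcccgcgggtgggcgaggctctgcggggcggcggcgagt
Arntl: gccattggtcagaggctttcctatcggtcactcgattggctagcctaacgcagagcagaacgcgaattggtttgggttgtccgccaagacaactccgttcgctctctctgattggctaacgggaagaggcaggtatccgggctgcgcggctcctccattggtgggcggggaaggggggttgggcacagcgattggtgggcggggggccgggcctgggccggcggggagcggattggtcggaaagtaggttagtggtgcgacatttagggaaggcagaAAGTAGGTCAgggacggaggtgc
Both strands of each window were searched, and matches of 1 motif with another were not merged. Ciart held 3 E-boxes, Per3 held 2 D-boxes and Arntl held 1 ROR element. Of the 17 clock genes with a promoter window, 5 held the E-box in at least 1 of their windows (Bhlhe41, Ciart, Cry1, Per1 and Tef), 1 the D-box and 1 the ROR element. Over all 32851 promoter windows of the same length the shares were 7.15% for the E-box, 2.32% for the D-box and 0.773% for the ROR element. These shares count single windows and the clock counts are of genes, so the 2 are not in the same unit. These matches describe the letters of the windows and were not read as binding.

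A few genes of fuel metabolism rose. Ppargc1a, the coactivator of mitochondrial gene expression, was at 10.96, 11.01 and 10.98 in TAC day 28 hearts, against 10.59, 10.52 and 10.54 in TAC day 11 hearts, and at 11.18, 11.28 and 11.36 in sham day 28 hearts, against 11.25, 11.25 and 11.30 in sham day 11 hearts. TAC arrays of the 2 days did not overlap, and both lay below the sham arrays. The change was 0.43 ± 0.08 (adjusted p = 0.00381), with -0.29 relative to sham at day 28 and -0.72 at day 11. Of 30 genes of fatty acid uptake and oxidation, 2 rose, against 1.23% of all genes. Positive changes were seen in 24, against 38.6% of all genes, a share that varied with level as given above. The median was 0.055 (0.033 to 0.092 when 1 array was left out, lowest without TAC day 28 replicate 2 and highest without TAC day 28 replicate 3) against -0.018 in sham hearts. The 2 were the fatty acid transporter Slc27a1 (0.49 ± 0.11) and the peroxisomal and mitochondrial isomerase Ech1 (0.33 ± 0.06), and Ech1 also differed from its sham change of -0.13 (difference 0.45 ± 0.09, adjusted p = 0.0372). Of the 30 genes, 20 were called below sham at day 28, against 6.98% of all genes, and 24 at day 11, against 7.73% of all genes. Of 19 genes of branched-chain amino acid breakdown, the phosphatase Ppm1k (0.51 ± 0.11), which switches on the rate-limiting dehydrogenase, and the transaminase Bcat2 (0.39 ± 0.09) rose. Below sham, 17 of the 19 were called at day 28, against 6.98% of all genes, and 18 at day 11, against 7.73% of all genes. Ppargc1a was the only gene called among 20 metabolic regulators. Of 52 respiratory chain subunits, Atp5k (0.43 ± 0.10) and Cox6a2 (0.24 ± 0.06) rose. None of 24 genes of the tricarboxylic acid cycle and pyruvate oxidation was called, and 2 reached an unadjusted p under 0.05, against 3305 of all 19937 genes. The glycolytic platelet-type phosphofructokinase Pfkp fell by 0.63 ± 0.14 and was 0.68 above sham at day 28 and 1.33 at day 11. Without TAC day 11 replicate 2 the calls of Slc27a1 (0.102), Ech1 (0.0584), Atp5k (0.119) and Cox6a2 (0.231) ended at the adjusted p given in brackets, that of Cox6a2 also in 10 of the other 11 fits without 1 array, and without TAC day 28 replicate 1 those of Bcat2 (0.0871) and Pfkp (0.0932), while that of Ppm1k ended without TAC day 28 replicate 3 (0.0808).

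Genes of antioxidant defence rose in part and folding genes fell in part. Of 22 antioxidant and NRF2 target genes, 5 rose, against 1.23% of all genes, and none fell. The median was 0.07 (0.029 without TAC day 11 replicate 2 and 0.115 without TAC day 11 replicate 1). Besides Nox4, which is a source and not a sink of oxidants, these were the glutathione S-transferases Gsta3, Gstm1 and Gstm2 and extracellular superoxide dismutase, Sod3. Gsta3 was at 7.67, 7.76 and 8.34 in TAC day 28 hearts, against 6.90, 6.74 and 6.35 in TAC day 11 hearts, and changed by 1.26 ± 0.30 (adjusted p = 0.0309), with -0.04 relative to sham at day 28 and -0.97 at day 11. Gstm1, Gstm2 and Sod3 rose by 0.41 ± 0.08, 0.36 ± 0.08 and 0.42 ± 0.08. Gstm genes are close copies of each other, so the probe sets of 1 may read another. Of 15 heat shock genes, 2 fell, Hsp90aa1, an inducible HSP90 (-0.65 ± 0.13, adjusted p = 0.0125), and Hsph1, an exchange factor of the HSP70 chaperones (-0.72 ± 0.18, adjusted p = 0.0374), and the median was -0.19 against -0.043 in sham hearts. Hsp90aa1 was 0.25 above sham at day 28 and 0.74 at day 11. In the folding list of the endoplasmic reticulum, the stress factor Ddit3 rose by 0.32 ± 0.08 and the disulfide isomerase Pdia6 fell by 0.41 ± 0.10, of 25 genes. The only genes called in sham hearts belong to this list: Creld2 at -0.54 ± 0.09 and the transcription factor Xbp1 at -0.43 ± 0.07 (adjusted p = 0.0483 for both), which changed in TAC hearts by -0.18 ± 0.09 and -0.04 ± 0.07 without a call. Neither sham call held in any of the 12 fits without 1 array. In TAC hearts, leaving out TAC day 28 replicate 3 ended the calls of Gsta3 (adjusted p = 0.16) and Hsph1 (0.131), and leaving out TAC day 11 replicate 2 ended those of Gstm2 (0.089), Sod3 (0.0506) and Pdia6 (0.132), with 1 antioxidant gene called higher in that fit. The calls of Hsp90aa1 and Ddit3 ended without TAC day 11 replicate 3 (0.0718) and TAC day 28 replicate 1 (0.116).

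Vascular, mesothelial and conduction genes changed singly. Vwf, von Willebrand factor of endothelial cells, was at 8.85, 8.91 and 8.97 in TAC day 28 hearts, against 8.30, 8.38 and 8.36 in TAC day 11 hearts, a rise of 0.56 ± 0.09 (adjusted p = 0.00152), and it was the only called gene of 20 endothelial markers. Of 15 smooth muscle and pericyte markers, the contractile protein gene Cnn1 (-0.69 ± 0.17) and the adhesion molecule Mcam (-0.45 ± 0.10) fell and the cofactor Myocd (0.34 ± 0.09) rose. Of 14 epicardial and mesothelial markers, Gpm6a rose by 0.48 ± 0.11 and Msln fell by 0.38 ± 0.10. Of 23 channel genes, Kcnh2, a delayed rectifier potassium channel, rose by 0.34 ± 0.08, and Hcn4, the pacemaker channel, fell by 0.31 ± 0.08. Apart from Vwf, these calls were each lost when 1 array was left out, with the highest adjusted p at 0.156 for Cnn1 (without TAC day 11 replicate 1), 0.101 for Mcam, 0.127 for Gpm6a (both without TAC day 28 replicate 3), 0.144 for Myocd, 0.169 for Msln, 0.159 for Kcnh2 and 0.166 for Hcn4 (all without TAC day 11 replicate 2). The Msln call ended in 8 of the 12 fits. Of 22 TGF-beta genes only Ccn5, described above, was called, and without TAC day 28 replicate 2 the ligand gene Tgfb3 rose too (0.50 ± 0.12, adjusted p = 0.0363). Of 20 genes of cholesterol synthesis and 21 of the ATF4 response the squalene synthase Fdft1 rose by 0.31 ± 0.07 and the amino acid transporter Slc7a5 fell by 0.47 ± 0.10. The call of Fdft1 ended without TAC day 28 replicate 2 (adjusted p = 0.0973) and that of Slc7a5 without TAC day 28 replicate 3 (0.123). No calcium cycling gene (21), intercalated disc gene (16), immediate early gene (27), glucocorticoid-responsive gene (18), cytosolic ribosomal protein gene (25), atrial (12), nerve (10), adipocyte (12) or red cell marker (5) was called, and 2, 4, 4, 6, 2, 2, 1, 2 and 0 of them reached an unadjusted p under 0.05. Over all genes 3305 of 19937 reached it. Scn4b, a sodium channel subunit, was at 6.66, 7.50 and 6.85 in TAC day 28 hearts and 7.42, 7.45 and 7.15 in TAC day 11 hearts and was not called. Atp2a2, the calcium pump of the sarcoplasmic reticulum, changed by 0.01 ± 0.05.

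The genes whose TAC change differed from the sham change differed in length, with overlapping ranges. The 13 higher genes had a median genomic span of 3.08 kb (0.06 to 80.3) and the 16 lower genes 68.51 kb (11.25 to 157), against 17.74 kb for all genes. Mrps21, a protein of the mitochondrial ribosome, was at 11.84, 11.82 and 11.92 in TAC day 28 hearts, against 10.93, 10.24 and 11.00 in TAC day 11 hearts, and at 10.93, 10.92 and 11.20 in sham day 28 hearts, against 11.21, 11.50 and 11.86 in sham day 11 hearts. The 2 operations moved opposite ways, by 1.14 ± 0.18 in TAC and -0.50 ± 0.18 in sham, and the difference of 1.64 ± 0.26 was called (adjusted p = 0.0106). The methyltransferase cofactor Trmt112 (difference 0.92 ± 0.13, adjusted p = 0.0048), Cuta (0.69 ± 0.11, adjusted p = 0.00915) and the small nucleolar RNA gene Snord57 (1.51 ± 0.22, adjusted p = 0.00619) behaved likewise, and these 4 were called in all 12 fits without 1 array. Among genes with a lower TAC change were the cytoskeletal linker Plec (-0.71 ± 0.12) and the sodium, potassium and chloride transporter Slc12a2 (-0.55 ± 0.10), both at an adjusted p of 0.023, and both calls ended without sham day 28 replicate 2 (adjusted p = 0.0907 and 0.101).

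A relation with span was also seen over the 3946 bright genes (mean level of 9 or more) with a known span. The 118 of them under 2 kb had a median change of 0.145 in TAC hearts and -0.11 in sham hearts, and the 557 of 100 kb or more had 0.0 in TAC hearts and 0.035 in sham hearts. Over all 19851 genes with a known span the 2289 under 2 kb had medians of -0.07 in TAC hearts and -0.01 in sham hearts, and Spearman's rho with span was 0.08 for the TAC change, 0.11 for the sham change and 0.01 for their difference, so the opposite signs were seen in the bright genes and not over all genes. In the bright genes rho was -0.15 for the TAC change, 0.33 for the sham change and -0.28 for their difference, as a description, since genes are not independent replicates. The part of this relation in the called differences was not tested. With the trend along span removed from each array, an alternative chosen after the data were seen, 30 genes differed between TAC and sham, against 29 without that step. These counts do not show whether the same genes were called. The calls of Flnc, Uck2, Col4a1, Col4a2, Enah and Fbln1 as different from sham were each lost in at least 1 fit without 1 array. Their highest adjusted p was 0.111 for Flnc, 0.0821 for Col4a1 (both without TAC day 11 replicate 3), 0.151 for Uck2, 0.101 for Col4a2, 0.144 for Enah (all without sham day 28 replicate 2) and 0.0935 for Fbln1 (without TAC day 28 replicate 3). For Ech1 it was 0.157, without sham day 28 replicate 2.

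**Figure D5:**
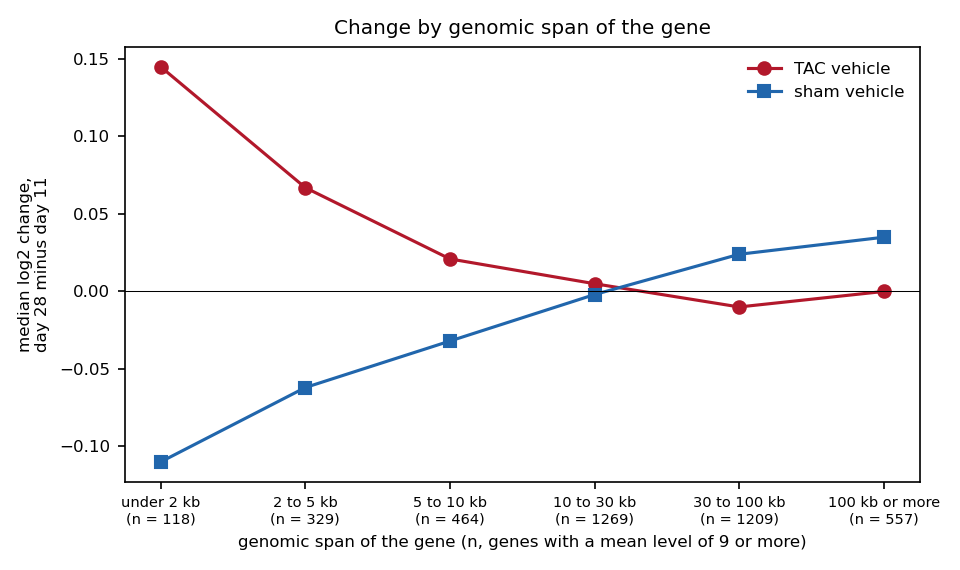
Median log2 change, day 28 minus day 11 (vertical axis), of bright genes in 6 classes of genomic span (horizontal axis, with the number of genes), in TAC hearts (circles) and sham hearts (squares). The shortest class is at 0.145 in TAC hearts and -0.11 in sham hearts, and the medians meet near 0 at 10 to 30 kb (0.005 and -0.002).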

How the data were processed

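The data are 1 table of log2 signals of 34760 probe sets on 27 single-colour Affymetrix arrays, as the authors deposited it. Total RNA was labelled with the Ambion WT Expression Kit and the Affymetrix terminal labelling protocol, per the labels' protocols. Limma is named per the submitters' processing notes, without a version. Background correction, normalization and summarisation are not given in the sources used here, and the values (1.67 to 14.2, array medians 6.95 to 7.04) were used unchanged.

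Probe sets were named from the platform annotation: 21640 have 1 gene, 1321 several and 11799 none. Each of 19937 genes was represented by its brightest probe set, judged by the average of all 27 arrays, and 954 genes have more than 1. Limma 3.58.1 in R 4.3.3 fitted 1 mean per group over all 27 arrays (9 groups of 3, 18 residual and 4.9 prior degrees of freedom, median residual SD 0.127), with Benjamini-Hochberg adjustment over all genes. The samples were grouped by their titles. The contrasts were TAC day 28 minus day 11, sham day 28 minus day 11, their difference, and TAC minus sham on each day. Tables and figures used Python 3.11.15 and pandas 2.3.3. The fit was tested on simulated data for the TAC comparison of 19937 genes: of 50 planted changes each it called 14 of 1.25-fold, 44 of 1.5-fold, 49 of 2-fold and 50 of 4-fold, all in the right direction, and 9 genes without a planted change. The simulated noise was drawn independently for each gene and array, without the deviations shared between arrays that are described below. The simulated counts therefore do not measure error rates or power in the real arrays. The number of arrays limits the precision.

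Genes were named by rule: the 15 largest called rises and falls whose days do not overlap, up to 5 called members per list (or the 2 with the lowest p where none was called), the 8 genes per direction with the lowest p for the difference, the 6 per direction for sham, and a panel of heart genes. Other list members singled out (Fmod, Tnc, Comp, Sfrp2, Dbp, Nr1d2, Xirp2, Tnnt2, Col12a1, Loxl3, Cd248 and Tgfb3) were chosen after their values were seen. The 41 gene lists hold 954 names, of which 873 were measured. The comparison and the lists were chosen with earlier results of these data known. Lists are described by counts and medians, with no test. Replicate numbers were checked for pairing: deviations of same-numbered arrays of the 2 days correlated at -0.0558 to 0.217 in TAC and -0.273 to 0.3 in sham, and those of same-numbered TAC and sham arrays at 0.0918 to 0.307 at day 28 and 0.00635 to 0.5 at day 11. Not every pair was over 0.1, so the numbers were not treated as pairs. Deviations of differently numbered arrays of different groups correlated at -0.476 to 0.455. Both extremes were with sham day 28 replicate 1, the lowest for TAC day 11 replicate 3 and the highest for TAC day 11 replicate 2. The source of these shared deviations was not tested. The alternatives were other array sets, normalization, filtering, probe set rule, variance model, array weights, the replicate block, span correction and leaving out each array.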

Additional observations from a re-analysis of the deposited data

Results flagged for a closer look

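The change between day 28 and day 11 differed between TAC and sham hearts, by the test of the difference itself, for 18 of the named genes. As TAC change minus sham change on the log2 scale, the higher ones were Mrps21 (1.64), Snord57 (1.51), Wdr83os (1.27), Adam4 (1.23), Fbln1 (1.20), Trmt112 (0.92), Cuta (0.69), Atp6v0e2 (0.60) and Ech1 (0.45). The lower ones were Uck2 (-1.14), Flnc (-1.13), Enah (-0.95), Col4a2 (-0.72), Plec (-0.71), Ankrd52 (-0.70), Col4a1 (-0.68), Slc12a2 (-0.55) and Lamc1 (-0.45). Adam4, of the ADAM metalloproteinase family, was at 7.23, 7.25 and 7.30 in TAC day 28 hearts, against 6.71, 6.42 and 6.61 in TAC day 11 hearts, and at 6.37, 6.85 and 6.87 in sham day 28 hearts, against 7.33, 7.16 and 7.25 in sham day 11 hearts, with a change of 0.68 in TAC hearts. Its difference call ended in 9 of the 12 fits without 1 array (highest adjusted p = 0.0976, without TAC day 11 replicate 2) and its TAC call in 5 (highest 0.153, without the same array). Wdr83os and Atp6v0e2 changed in TAC hearts by 0.83 ± 0.16 and 0.53 ± 0.07 and in sham hearts by -0.44 ± 0.16 and -0.06 ± 0.07. Of the 18 differences, those of Mrps21, Snord57, Trmt112 and Cuta were called in all 12 fits without 1 array, and the other 14 ended in 3 to 10 of them. Among differences whose loss is not given in the report, the highest adjusted p was 0.111 for Ankrd52 (ended in 10), 0.101 for Wdr83os (9), 0.093 for Lamc1 (7) and 0.0821 for Atp6v0e2 (3). Groups of 3 arrays were not tested for outlying samples.

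Among the 13120 probe sets with no gene name or several, which the report does not otherwise use, 21 were called for TAC day 28 minus day 11, 12 higher and 9 lower.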

How the results depend on the processing

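Of 91 named genes called in TAC hearts, none changed sign under any of 22 alternative settings, and 26 were called under all 22. A further gene, Gm10590, was called under the 21 settings in which it was tested, and 4 of the 91 were tested in 21. The number of genes called in TAC hearts was 141 with only the 6 TAC arrays compared, 634 after a further quantile normalization (312 higher and 322 lower) and 1456 with array weights, of which 108, 387 and 407 were among the 416. Leaving out 1 array at a time gave 101 to 370 genes, with the fewest without TAC day 11 replicate 2. In sham hearts, where the count was 2, it was 0 with only the arrays compared, with arrays centred on their median, with the replicate block and with the span trend removed (794 genes had an unadjusted p under 0.05 in the limma fit with all arrays), 4 without the dimmest genes, 5 with trend and robust variance and 148 with array weights, and 0 in each fit without 1 array. Genes differing between TAC and sham numbered 69 with only the arrays compared, 54 with vehicle arrays, 79 after quantile normalization, 13 after median centring, 103 without the dimmest genes, 91 with trend and robust variance and 609 with array weights, and 4 to 86 when 1 array was left out, with the fewest without TAC day 11 replicate 3 and the most without TAC day 28 replicate 2. Called probe sets outside the gene table numbered 0 with only the arrays compared, 37 without the dimmest genes, 32 with trend and robust variance and 198 with array weights, and 6 to 19 without 1 array. With the replicate block, which joins arrays that share only a number, 355 genes were called in TAC hearts, 338 of them among the 416, and 22 differed from sham. Among the named genes the block ended the TAC calls of Cox6a2, Msln and Prc1 (adjusted p = 0.0591, 0.0557 and 0.0567). With the span trend removed, an alternative chosen after seeing the data, 530 genes were called in TAC hearts and 30 differed from sham. The sets of fewer arrays hold fewer degrees of freedom, and the causes of these shifts were not tested. The median change varied with level: 8606 genes with a mean level under 7 had a median TAC change of -0.096, against 0.01 in the 3949 genes of 9 or more. The reason was not tested.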

Other observations

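Gene families outside the lists were counted after their values had been seen. Of 8 measured subunits of the chaperonin CCT, the ring complex that folds actin and tubulin, 5 fell in TAC hearts at day 28 relative to day 11, against 0.853% of all genes, and none rose, with a median of -0.309, against -0.03 in sham hearts and -0.044 for all genes in TAC hearts. Cct7 was at 9.68, 9.89 and 9.73 in TAC day 28 hearts, against 10.05, 10.19 and 10.19 in TAC day 11 hearts, a change of -0.38 ± 0.06 (limma adjusted p = 0.00315). Cct8, Cct6a, Cct2 and Cct5 fell by 0.36, 0.35, 0.30 and 0.29, and without TAC day 11 replicate 2 1 of the 8 was called lower, while the Cct7 call held in all 12 fits without 1 array.

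Of 22 glutathione S-transferases, 8 rose, against 1.23% of all genes, and none fell, with a median of 0.274, against -0.028 in sham hearts. Beyond the members already described, Gstt1 was at 8.51, 8.42 and 8.61 in TAC day 28 hearts, against 7.86, 7.92 and 7.74 in TAC day 11 hearts (change 0.67, limma adjusted p = 0.00831), and Gstt3, Gstm3, Gstm6 and Gstm7 rose by 0.38, 0.35, 0.47 and 0.35. The count was 3 to 7 when 1 array was left out, with the fewest without TAC day 11 replicate 2, and the calls of Gstt1 and Gstt3 held in all 12 fits while that of Gstm7 held in none. Of 53 small nucleolar RNA genes, 46 had positive changes in TAC hearts, against 7700 of all 19937 genes, with medians of 0.183 in TAC hearts and -0.197 in sham hearts. Only Snord57 was called higher, and its call ended without TAC day 28 replicate 3 or TAC day 11 replicate 2. The TAC median was 0.035 without TAC day 28 replicate 3 and 0.319 without TAC day 28 replicate 1.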
